A study of Mus musculus with 9 samples.

Results

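The genes described here are 9 components of Fc receptor and ITAM (immunoreceptor tyrosine-based activation motif) signaling in mouse macrophages. They are the activating Fcγ receptor genes Fcgr1, Fcgr3 and Fcgr4, the inhibitory receptor gene Fcgr2b, the adaptor genes Fcer1g and Tyrobp, the kinase gene Syk, and the inhibitory receptor genes Sirpa and Pirb. They were found by symbol, and all 9 were among the 30406 genes that the 9 libraries had in common. The libraries were single-cell 3′ RNA-seq of mouse embryonic fibroblast (MEF) cultures during conversion to induced neurons (iNs), which asked how loss of the clock genes Per1 and Per2 changes the cells in such cultures. All cultures received lentiviruses for the reprogramming transcription factors and for the reverse tetracycline transactivator M2rtTA. Doxycycline was added with the change to N3 medium, from which the days were counted. WT, Per1-/- and Per2-/- MEFs gave 1 library each at day 4, day 7 and day 10. The mutant alleles were Per1tm1Drw and Per2tm1Drw on a B6.129 background. MEFs came from day 13.5 embryos without head and heart, several embryos went into a dish, and the sex of the embryos was not determined. A library was therefore 1 pool of embryos, and a difference between genotypes within a day had no replicate.

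Fcγ receptors bind the constant part of IgG, and so couple antibody-coated particles and immune complexes to phagocytosis and cytokine release. FcγRI (Fcgr1), FcγRIII (Fcgr3) and FcγRIV (Fcgr4) have no signaling motif of their own and pair with the common γ chain encoded by Fcer1g. Its ITAM is phosphorylated by Src family kinases and then recruits SYK. DAP12, encoded by Tyrobp, is another ITAM adaptor, used by TREM2 and related receptors. FcγRIIB (Fcgr2b), SIRPα (Sirpa) and PIR-B (Pirb) carry an inhibitory motif (ITIM) that recruits phosphatases. SIRPα binds CD47, and PIR-B binds MHC class I molecules. The balance of activating and inhibitory Fcγ receptors is known to set the threshold of macrophage activation by IgG.

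On the GRCm38 (mm10) build, 4 of the 9 genes lie within 275.7 kb of chromosome 1, namely Fcgr2b (170958617 to 170976547, minus strand), Fcgr4 (171018920 to 171029761, plus strand), Fcgr3 (171051174 to 171064935, minus strand) and Fcer1g (171229572 to 171234365, minus strand). Fcgr1 lies on chromosome 3 (96282909 to 96293969, minus strand). Pirb (3711409 to 3720391, minus strand) and Tyrobp (30413760 to 30417585, plus strand) lie on chromosome 7, Sirpa on chromosome 2 (129592835 to 129632228, plus strand) and Syk on chromosome 13 (52583173 to 52648792, plus strand). Fcgr2b and Fcgr3, Pirb and the Pira genes, and Sirpa and the Sirpb1 genes have near-identical stretches, so reads there can be split between copies or dropped. Values of these genes are uncertain to that extent. An antisense gene, Gm38204, overlaps Fcgr2b.

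The promoters of the genes were searched for GAGGAA or TTCCTC, the same letters on either strand, a core that the myeloid factor PU.1 is known to bind. RefSeq sequences for GRCm38.p6 gave 9 windows of 250 bases before a start site for 7 of the 9 genes. At least 1 match was found for 5 of these 7 genes (Fcgr1, Fcgr3, Fcgr4, Pirb and Syk). By window this was 6 of the 9, against 23.3% of all 32851 windows of this length. The windows of Fcgr3 overlap, and the match of Syk lies in an annotated exon. The window of Fcgr2b had no match, but 203 of its bases lie in annotated exons and 47 outside them. Its listed start site (170976071) lies inside the annotated gene, so the sequence before the outer end of that gene (170976547) was not searched. The start sites listed for Fcgr3 (171059403 and 171059394) also lie inside its annotated gene, whose outer end is at 171064935. Those listed for Syk (52596882 and 52583437) lie inside its gene as well, which begins at 52583173. The sequence before the outer ends of these genes was not searched either. Whether Fcgr2b, Fcgr3 or Syk has a match there was not tested. Windows of Fcgr1, Fcgr3 and Fcgr4 are shown because each of these activating receptors held a match. Fcer1g is shown as the adaptor they use, whose window had no match. Only bases outside annotated exons are printed, 5′ to 3′ on the strand of the gene, with matches in capitals. A match is a string of letters and not a measured binding site.
Fcgr1 (chr3:96293970-96294219, minus strand): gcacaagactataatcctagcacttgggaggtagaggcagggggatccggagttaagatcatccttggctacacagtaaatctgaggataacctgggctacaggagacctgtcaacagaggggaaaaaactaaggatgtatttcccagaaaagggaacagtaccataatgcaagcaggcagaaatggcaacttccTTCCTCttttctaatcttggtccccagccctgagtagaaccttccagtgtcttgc
Fcgr3 (chr1:171059404-171059626, minus strand): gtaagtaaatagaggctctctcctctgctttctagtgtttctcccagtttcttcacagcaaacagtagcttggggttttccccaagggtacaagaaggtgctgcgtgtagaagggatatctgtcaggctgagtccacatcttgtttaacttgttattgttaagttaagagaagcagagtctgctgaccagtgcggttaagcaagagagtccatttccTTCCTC
Fcgr4 (chr1:171018676-171018919, plus strand): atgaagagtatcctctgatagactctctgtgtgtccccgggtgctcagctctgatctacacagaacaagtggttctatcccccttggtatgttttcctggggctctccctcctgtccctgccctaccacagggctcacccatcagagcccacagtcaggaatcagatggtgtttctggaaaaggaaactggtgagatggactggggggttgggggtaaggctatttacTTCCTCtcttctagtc
Fcer1g (chr1:171234366-171234599, minus strand): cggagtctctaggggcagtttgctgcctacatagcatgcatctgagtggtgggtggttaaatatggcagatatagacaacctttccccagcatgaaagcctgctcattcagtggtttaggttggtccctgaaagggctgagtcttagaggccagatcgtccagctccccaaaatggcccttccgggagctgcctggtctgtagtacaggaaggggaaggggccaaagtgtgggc
The match began 55 bases before the start site of Fcgr1, 22 bases before that of Fcgr4, and 6 or 15 bases before the start sites listed for Fcgr3.

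Of 95603 barcodes, 74785 were kept after the filters on depth, mitochondrial reads and doublets, and 6506 of these were macrophage-like. All 17 macrophage markers were above 1 CPM (counts scaled to the total counts of the same cells) in their sum. The class was named from these markers, so this describes it and is no check of the name. Of the other cell types that use these genes, 4 of 8 neutrophil markers had a UMI (unique molecular identifier) there, with a summed level of 3.72 to 10.5 CPM by library and S100a9, Ly6g, Mpo and Retnlg at 0. Likewise 4 of 8 mast cell markers (0.167 to 1.33 CPM, Mcpt4, Tpsb2, Tpsab1 and Cma1 at 0) and 6 of 10 lymphocyte markers (0.668 to 7.31 CPM, Cd3e, Ncr1 and Nkg7 among those at 0) had a UMI. All 7 osteoclast markers had a UMI, at 51.3 to 134 CPM in sum, and 5 of 7 dendritic cell markers did, at 1.37 to 5.35 CPM with Flt3 and Ccr7 at 0. Fibroblast markers summed to 227 to 744 CPM and Schwann cell markers to 323 to 579 CPM. The macrophage-like cells per library numbered 143 to 425 for day 4, 527 to 1398 for day 7 and 238 to 1361 for day 10, the lowest of each day being WT. Total UMI per library ranged from 126625215 to 353198559. The WT day 10 library stood apart, with a median of 3552 UMI per barcode against 16135 to 25795 in the others. A low-UMI cluster of 2545 cells with macrophage and other genes, 2325 of them from WT day 10 (37.9% of its kept cells, at most 1.01% elsewhere), was left out of the class by a threshold set after the data were seen. Day 10 was also processed with a later pipeline version and gene table than days 4 and 7, so these cannot be told apart from the day. Xist was at most 0.0939 CPM in the macrophage-like cells of Per1-/- days 7 and 10 and at least 447 CPM in those of the other 7 libraries, so these 2 libraries held nearly no female macrophage-like cells. Per1 and Per2 transcripts were not lower in the libraries carrying their knockout label, at 9.18 to 10.3 CPM of Per1 in the libraries labelled Per1-/- against 6.34 to 7.96 CPM elsewhere, and 4.96 to 6.39 CPM of Per2 in those labelled Per2-/- against 2.57 to 3.17 CPM elsewhere. Reads of the 3′ end do not check a deletion elsewhere in a gene, so these levels say nothing for or against the labels. The study examined the proteins by western blotting, which is not analysed here. Up to 365 barcodes were shared by a pair of libraries (Per1-/- day 4 and Per2-/- day 7), against at most 63 for all but 3 of the 36 pairs.

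The 9 genes were read mostly in macrophage-like cells. Between 90.4% (Syk) and 94.7% (Fcgr2b) of the UMI of 8 of the genes came from these cells, which made up 6506 of the 74785 cells. For Sirpa the share was 82.6%. With the cells removed as doublets kept in, the shares of the 8 genes were 77.0% (Syk) to 80.6% (Fcgr2b), and that of Sirpa was 70.5%. The adaptors were the most abundant, at 3377 CPM for Fcer1g and 2768 CPM for Tyrobp over the 9 libraries pooled. Sirpa followed at 671 CPM, Fcgr3 at 363, Pirb at 204, Fcgr2b at 154, Syk at 146, Fcgr1 at 122 and Fcgr4 at 30.8 CPM. By library, Fcgr2b was above Syk and Fcgr1 in Per1-/- on days 7 and 10 and below both in the other 7. The medians over libraries were 103 CPM for Fcgr2b, 147 for Syk and 87.8 for Fcgr1. These are 3′ end counts, which do not grow with transcript length, but capture can differ between genes.

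With the named classes other than macrophage-like summed, all genes but Sirpa were within the range of the macrophage markers. In that sum the 17 markers were at 0.148% to 1.61% of their CPM in macrophage-like cells, with a median of 0.228%. Fcgr1, Fcgr2b, Fcgr3, Fcgr4, Fcer1g, Tyrobp and Pirb were at 0.203% to 0.273%, inside that range, and are read as background there. An exception was Fcgr2b in Schwann-like cells, at 0.828% (47 UMI) against 0.211% to 0.730% for the markers. Syk, at 0.620%, was inside that range too, with Cd14 alone of the markers above it. Sirpa was at 1.64%, above every marker. In fibroblast-like cells Cd14 was at 1.77%, Sirpa at 1.70% and Syk at 0.581%. In neuron-like cells they were at 0.812%, 0.801% and 0.541%. Sirpa and Syk were thus inside the marker range in both classes, but only through Cd14 as its upper end. The next highest marker, Ptprc, was below both genes, at 0.370% in fibroblast-like and 0.488% in neuron-like cells. In Schwann-like cells Sirpa was at 4.30% and Syk at 1.39%, above all markers. In muscle-like cells Syk was at 0.955%, where the highest marker, Itgam, was at 0.933%.

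**Figure D1:**
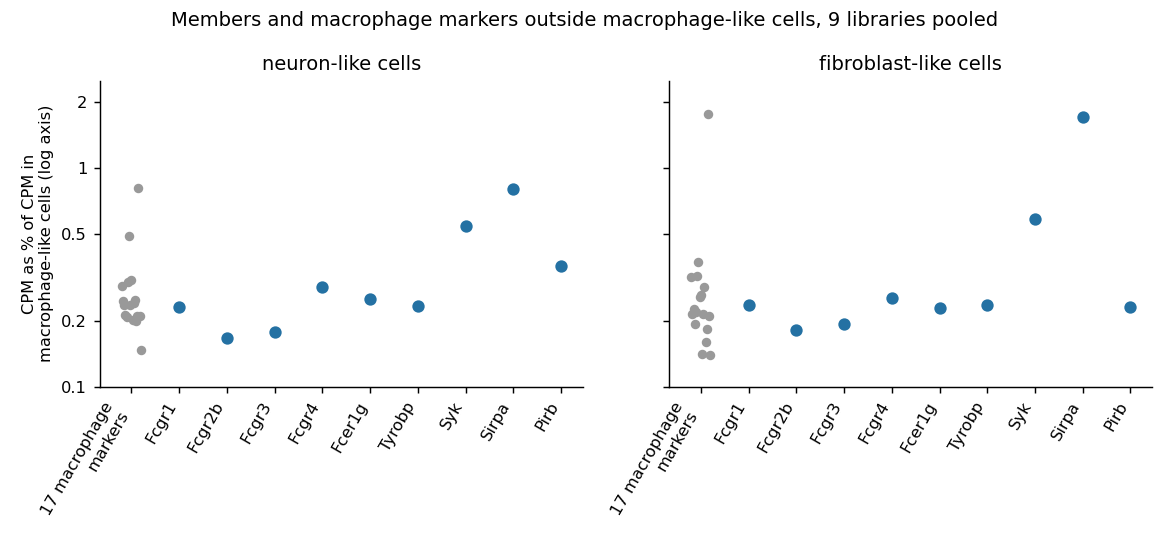
CPM in neuron-like (left) and fibroblast-like (right) cells as a percentage of CPM in macrophage-like cells, 9 libraries pooled, on a log axis, for the 17 macrophage markers (gray) and the 9 genes (blue). In fibroblast-like cells all 9 genes lie within the range of the markers, Syk at 0.581% and Sirpa at 1.70%, the highest marker being Cd14 at 1.77%.

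Sirpa was found at 11.4 CPM in fibroblast-like cells, 5.37 CPM in neuron-like cells and 28.8 CPM in Schwann-like cells, the highest of these classes. Across libraries the fibroblast-like level ran from 8.99 CPM (WT day 4) to 15.5 CPM (Per1-/- day 10) and the neuron-like level from 3.09 CPM (Per2-/- day 4) to 8.63 CPM (Per1-/- day 7). The Schwann-like level was between 21.9 and 39.1 CPM in all 9 libraries. Syk was at 0.851 CPM in fibroblast-like cells, from 0.553 to 1.01 CPM by library, and at 0.791 CPM in neuron-like cells, where 126 UMI were counted in all. None of the 16 genotype tests of these 2 genes in neuron-like and fibroblast-like sums passed an adjusted p of 0.05 with edgeR, where 0 to 0.0477% of all genes did. Of the 16, 2 had an unadjusted p under 0.05 with edgeR, both for Sirpa in fibroblast-like cells. Of all genes, 4.38%, 6.58%, 5.86% and 5.23% did so in neuron-like cells and 8.75%, 13.7%, 7.67% and 12.4% in fibroblast-like cells, the order being Per1-/- compared with WT, Per1-/- with Per2-/-, Per2-/- with WT, and Per1-/- with the mean of the other genotypes. For Sirpa, Per1-/- against WT, the log2 difference was 0.31 ± 0.12 (SE) in fibroblast-like cells (edgeR adjusted p = 0.534) and 0.25 ± 0.22 in neuron-like cells (edgeR adjusted p = 1). In a test by day that was chosen after its values were seen, Sirpa in neuron-like cells rose by 0.85 ± 0.22 from day 4 to day 7 and by 1.02 ± 0.23 from day 4 to day 10 on the log2 scale (edgeR adjusted p = 0.0183 and 0.00416), where 19% and 43.8% of all genes passed. The same test was not passed by Sirpa in fibroblast-like cells, at 0.30 ± 0.12 and 0.36 ± 0.12 (edgeR adjusted p = 0.213 and 0.074), nor by Syk in either class (smallest edgeR adjusted p = 0.45). The day 7 call was lost without Per2-/- day 4, Per1-/- day 7 or Per2-/- day 7 (edgeR adjusted p = 0.0922, 0.0812 and 0.111), and the day 10 call held without each library in turn. The neuron-like cells lay in different clusters by day, with 1418 and 1036 of the 2476 WT day 4 cells in clusters 4 and 9, but 152 of 192 WT, 249 of 357 Per1-/- and 724 of 822 Per2-/- day 10 cells in cluster 18. Day and cluster cannot be told apart there. Tyrobp, read as background in neuron-like cells, also had higher levels there on later days. It was at 2.47, 3.66 and 4.25 CPM in WT on days 4, 7 and 10, at 5.22, 6.86 and 8.77 CPM in Per1-/-, and at 2.71, 13.3 and 23.2 CPM in Per2-/-. Sirpa was at 4.32, 5.72 and 7.25 CPM, at 4.70, 8.63 and 7.103 CPM, and at 3.09, 8.17 and 8.43 CPM in the same order. From day 4 to day 10 Fcer1g went from 4.78 to 2.75 CPM in WT, from 9.05 to 13.8 CPM in Per1-/- and from 2.42 to 22.7 CPM in Per2-/-. The part of this background in the rise of Sirpa was not tested.

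Levels in the macrophage-like cells were then followed by library, as CPM with TMM scaling (a scaling to equal composition between libraries). Fcgr2b, the inhibitory receptor, varied most. On day 4 it was at 25.7 CPM in WT, 36.9 in Per1-/- and 20.8 in Per2-/- cells. On day 7 it was at 62.8 CPM in WT, 206 in Per1-/- and 135 in Per2-/- cells, and on day 10 at 99.7, 299.9 and 134 CPM. Every day 7 and day 10 library was above every day 4 library, and Per1-/- was the highest genotype on each day. The highest library was 14.4-fold above the lowest.

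Fcgr3, the activating receptor closest to Fcgr2b in its IgG-binding part, was at 225 CPM in WT, 255 in Per1-/- and 242 in Per2-/- cells on day 4. It was at 256, 403 and 389 CPM on day 7 and at 301, 440.0 and 429 CPM on day 10. Both mutants were above WT on each day, and all day 10 libraries were above all day 4 libraries. The range was 1.96-fold.

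Fcgr1, the high-affinity receptor, followed another order. On day 4 it was at 74.5 CPM in WT, 85.3 in Per1-/- and 51.9 in Per2-/- cells. On day 7 the values were 79.8, 89.0 and 189 CPM and on day 10 110.8, 107 and 199 CPM. WT and Per1-/- were close on all days, while Per2-/- was the lowest genotype on day 4 and the highest on days 7 and 10. Fcgr4 ranged from 22.0 to 42.9 CPM, with its highest value in Per2-/- day 7 cells.

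The common signaling chain varied less. Fcer1g ranged from 2954 CPM (Per2-/- day 4) to 4159 CPM (Per1-/- day 10), a 1.41-fold range, and Tyrobp from 2352 CPM (Per1-/- day 4) to 3634 CPM (Per2-/- day 10), a range of 1.54-fold. Syk, the kinase recruited by both adaptors, was between 125 and 163 CPM in all 9 libraries, the narrowest range (1.30-fold). Among the ITIM receptors, Pirb was between 171 and 250 CPM. Sirpa was between 659 and 799.8 CPM in 8 libraries and at 491 CPM in Per2-/- day 10 cells. The 4 Fcγ receptor genes thus each spanned a wider range over the 9 libraries than the adaptors and the kinase.

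**Figure D2:**
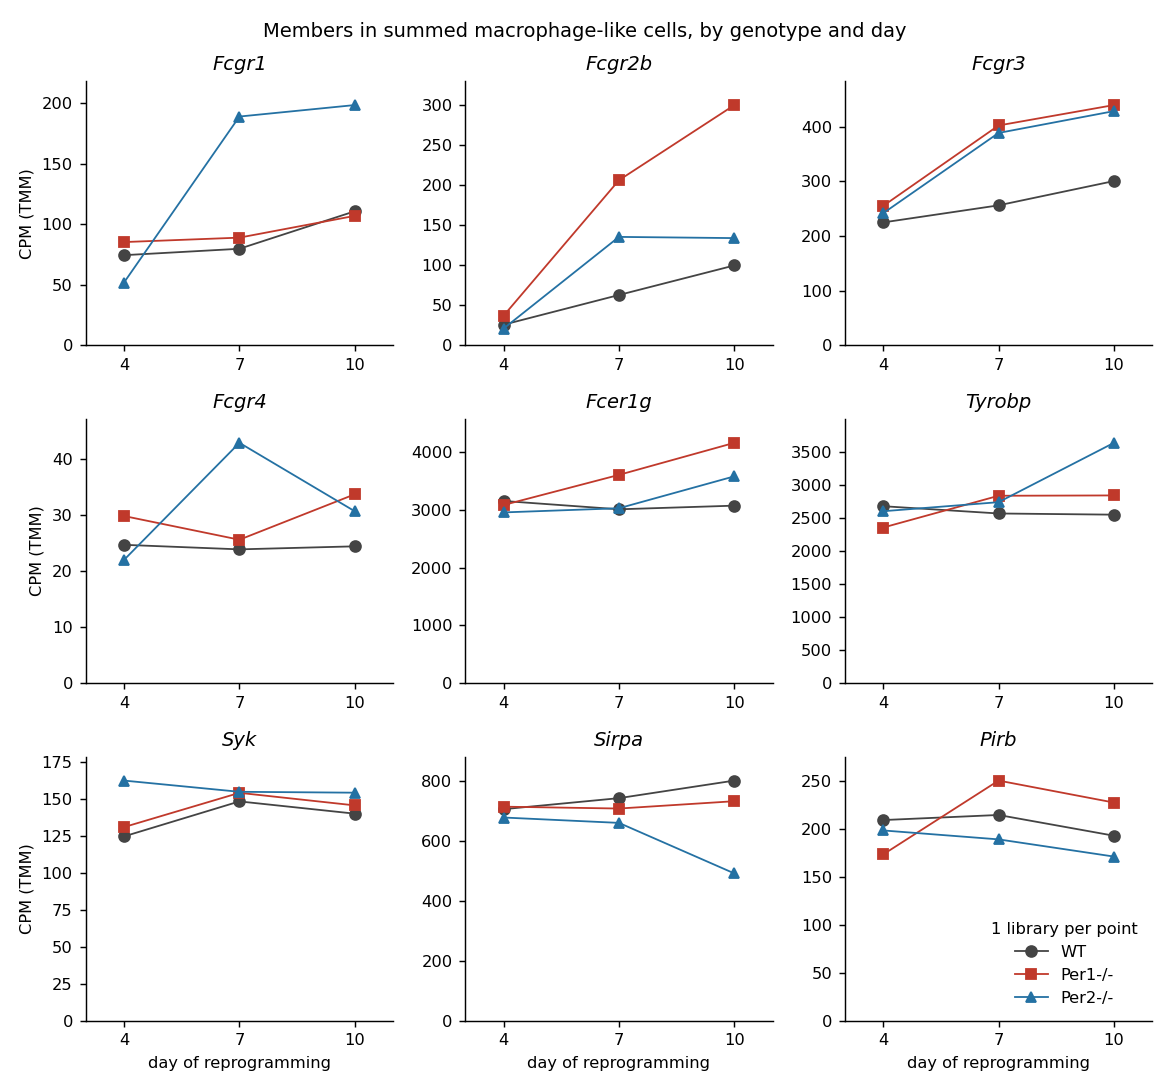
CPM with TMM scaling of each gene in the summed macrophage-like cells, by day (x axis), for WT (gray circles), Per1-/- (red squares) and Per2-/- (blue triangles); each point is 1 library and each y axis starts at 0. Fcgr2b lies between 20.8 and 36.9 CPM on day 4 and between 99.7 and 299.9 CPM on day 10, while Syk lies between 125 and 163 CPM throughout.

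The tests took the 9 sums together, with genotype and day as terms, so that the 3 days of a genotype served as its repeats and the spread was that between libraries. Whether the days of a genotype came from separate pools of embryos is not stated. The fit takes a genotype difference as shared by the days, so a difference that changes with day counts as spread. All 9 genes were among the 12851 tested. For day 10 against day 4, 2 of the 9 genes passed, both higher, against 17.5% of all genes (9.17% higher). Fcgr2b rose by 2.585 ± 0.248 on the log2 scale (SE, edgeR adjusted p = 0.000572) and Fcgr3 by 0.67 ± 0.12 (edgeR adjusted p = 0.00955). The call of Fcgr3 was lost with a gate on single cells, with day as the only term, with a Y-linked covariate and without Per1-/- day 4 (edgeR adjusted p = 0.254, 0.0549, 0.0751 and 0.0536). Over all 20 alternatives its log2 difference for day 10 was 0.11 to 0.82. For day 7 against day 4, Fcgr2b passed, against 0.747% of all genes (0.514% higher), with a log2 difference of 2.20 ± 0.25 (edgeR adjusted p = 0.0208). Fcgr3 did not pass there, at 0.51 ± 0.12 (edgeR adjusted p = 0.0732). The call of Fcgr2b for day 7 was lost when Per1-/- day 4, Per1-/- day 7, Per2-/- day 7 or WT day 10 was left out (edgeR adjusted p = 0.103, 0.0864, 0.1 and 0.0577, with log2 differences of 1.97 to 2.21). It was also lost with the gate on single cells and with day as the only term (edgeR adjusted p = 0.111 and 0.177, log2 differences of 1.99 and 2.24). With the low-UMI cluster added, the calls of Fcgr2b for day 7 and day 10 were lost (edgeR adjusted p = 0.566 and 0.0587), and the day 10 difference of Fcgr3 was 0.11 (edgeR adjusted p = 0.844).

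Fcgr1 had log2 differences of 0.60 ± 0.31 for day 7 and 0.85 ± 0.31 for day 10 against day 4 and did not pass (edgeR adjusted p = 0.29 and 0.0903). The day 10 difference did pass with DESeq2 (0.85, DESeq2 adjusted p = 0.0204), and with edgeR without a low-count filter (0.87, adjusted p = 0.018) and without the cycling cluster (0.92, adjusted p = 0.0482). None of the 9 genes passed for day 10 against day 7 with edgeR, where 1.07% of all genes did. An edgeR unadjusted p under 0.05 was found for 0 of the 9, against 9.31% of all genes. There the log2 differences were 0.38 ± 0.22 for Fcgr2b, 0.16 ± 0.12 for Fcgr3 and 0.25 ± 0.30 for Fcgr1. Over the 3 day contrasts the other 6 genes lay between -0.14 and 0.23, with standard errors of 0.094 to 0.21. The median over the 9 genes for day 10 against day 4 was 0.22, and that over all genes 0.0029.

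For genotype, no gene of the 9 passed in any of the 4 contrasts with edgeR, where 0.00778% of all genes passed for Per1-/- against WT, 0.0856% for Per1-/- against Per2-/- and 0% for Per2-/- against WT. At an unadjusted p under 0.05 the counts were 2, 1 and 2 of the 9 genes, against 8.29%, 17.4% and 16.2% of all genes. Fcgr2b was 1.34 ± 0.24 higher on the log2 scale in Per1-/- than in WT (edgeR adjusted p = 0.215) and 0.84 ± 0.22 higher than in Per2-/- (edgeR adjusted p = 0.144). Against the mean of both, where 0.00778% of all genes passed, the difference was 1.09 ± 0.19 (edgeR adjusted p = 0.135). DESeq2 called Fcgr2b in all 3 of these contrasts (DESeq2 adjusted p = 5.07e-05, 0.02 and 6.78e-05), and limma-voom called it in none (adjusted p = 0.0693, 0.13 and 0.0912). DESeq2 called 65, 268 and 105 of the 12851 genes in these contrasts, edgeR 1, 11 and 1, and limma-voom 6, 15 and 6. Without a low-count filter, or without the WT day 4 library, edgeR called it for Per1-/- against WT (adjusted p = 0.00301 and 0.0363), together with 55 of 19731 and 6 of 12848 genes in all.

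The Per1-/- cells of days 7 and 10, in which Fcgr2b was highest, were those with nearly no Xist, with 187 and 203 CPM of Y-linked genes against 34.4 to 80.8 CPM in the other 7 libraries. Summed fibroblast markers were also lowest there, at 227 and 276 CPM where the rest had 325 to 744, as were neuron markers, at 15.6 and 18.2 CPM where the rest had 32.4 to 129. Schwann cell markers were highest there, at 559 and 579 CPM where the rest had 323 to 446, as were macrophage markers, at 28937 and 26636 CPM where the rest had 21046 to 24161. The part of these markers in the result was not tested. On day 4, where Xist was at 558 CPM in Per1-/- cells, Fcgr2b UMI per total UMI were 1.42-fold those of WT (95% counting interval 1.14 to 1.77) and 1.80-fold those of Per2-/- (1.45 to 2.27). On day 7 the ratios were 3.09 (2.88 to 3.33) and 1.47 (1.41 to 1.53) and on day 10 2.76 (2.54 to 2.996) and 2.23 (2.13 to 2.33). Each of these ratios compares 1 library with 1 other, and the intervals cover counting error only. With the level of Y-linked genes as a further term, the log2 difference of Fcgr2b between Per1-/- and WT was 0.37 in place of 1.34, and its call for day 7 against day 4 was lost (edgeR adjusted p = 0.071). Over all 20 alternatives its difference for day 7 was 1.83 to 2.54. Sex and genotype cannot be told apart in the Per1-/- libraries of these days.

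Fcgr3 was 0.46 ± 0.12 higher in Per1-/- and 0.41 ± 0.12 higher in Per2-/- than in WT on the log2 scale (edgeR adjusted p = 0.394 and 0.185), and 0.05 ± 0.12 higher in Per1-/- than in Per2-/-. Fcgr1 was 0.65 ± 0.31 higher in Per2-/- than in WT (edgeR adjusted p = 0.335) and differed by 0.12 ± 0.30 between Per1-/- and WT. Without the Per2-/- day 4 library the Per2-/- difference of Fcgr1 was 1.07 and passed (edgeR adjusted p = 0.00467), in a fit where 1071 of 12873 genes passed, against 0 with all libraries. Sirpa was 0.31 ± 0.13 lower in Per2-/- than in WT (log2 difference of -0.31, edgeR adjusted p = 0.307). The other 5 genes had log2 differences within the range of -0.31 to 0.42 that all 6 genes other than Fcgr1, Fcgr2b and Fcgr3 spanned over the 4 contrasts. That these tests missed the threshold does not show that the genotypes were alike.

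**Figure D3:**
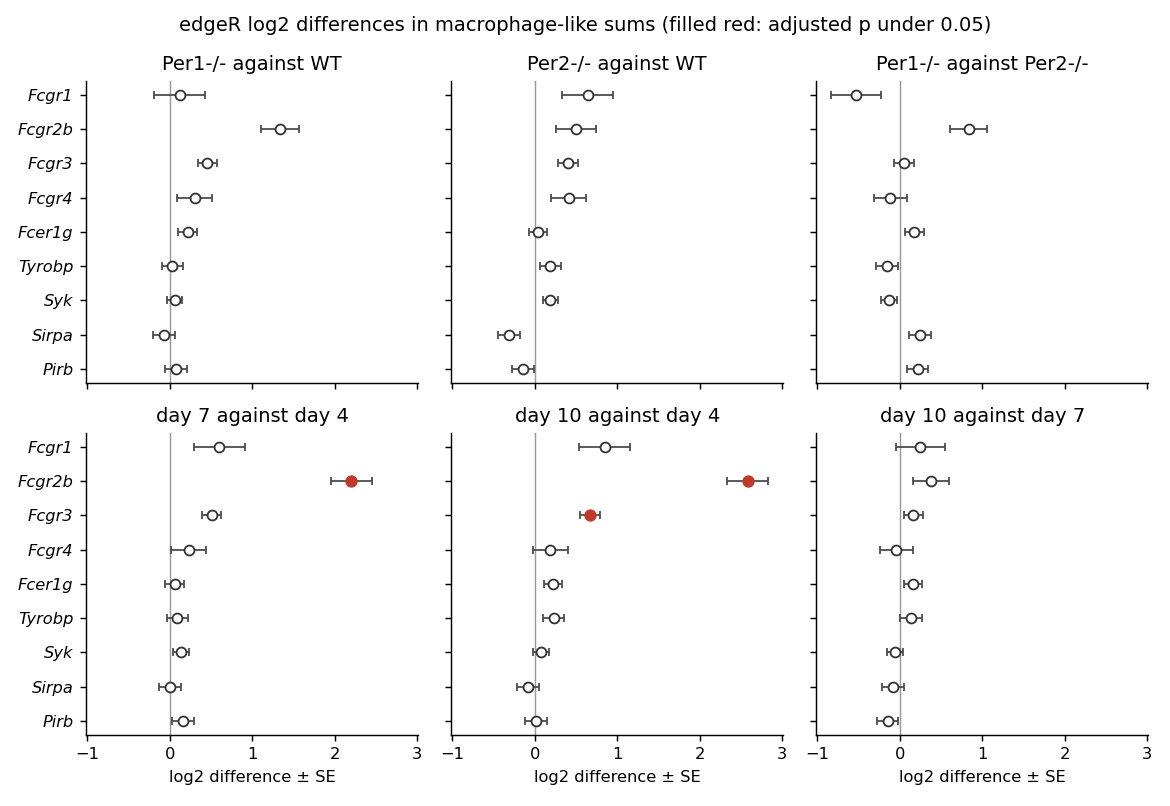
edgeR log2 differences (points) with standard errors (bars) of the 9 genes in macrophage-like sums for 3 genotype contrasts (top) and 3 day contrasts (bottom), 9 libraries in each fit. Filled red points passed an adjusted p of 0.05, which were Fcgr2b for day 7 and day 10 and Fcgr3 for day 10, each against day 4.

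The make-up of the Fcγ receptors differed between days and libraries. The UMI of Fcgr1, Fcgr3 and Fcgr4 together, divided by those of Fcgr2b, gave an activating to inhibitory ratio at the transcript level. It is compared between libraries only, since capture differs between genes. On day 4 the ratio was 12.6 in WT, 10.0 in Per1-/- and 15.2 in Per2-/- cells. On day 7 it was 5.73, 2.51 and 4.59, and on day 10 4.37, 1.94 and 4.92. All day 7 and day 10 values were below all day 4 values, and Per1-/- had the lowest ratio on each day. The 95% counting intervals of Per1-/- and WT were 9.23 to 10.9 and 10.3 to 15.6 on day 4, 2.44 to 2.58 and 5.32 to 6.18 on day 7, and 1.89 to 1.99 and 4.01 to 4.78 on day 10. These intervals hold no spread between libraries, and with 1 library per genotype and day the differences within a day were not tested.

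Fcgr2b made up 7.34%, 9.05% and 6.19% of the UMI of the 4 receptors on day 4 in WT, Per1-/- and Per2-/- cells, and 18.6%, 34.1% and 16.9% on day 10. Fcgr3 was the largest part throughout, from 71.9% (Per2-/- day 4) to 49.96% (Per1-/- day 10). Fcgr1 held 25.0% and 25.1% in Per2-/- cells on days 7 and 10 and 12.3% and 12.2% in Per1-/- cells. For the adaptors, the ratio of Tyrobp to Fcer1g UMI was lowest in Per1-/- cells on each day (0.763, 0.786 and 0.682) and highest in Per2-/- cells (0.880, 0.904 and 1.02), with WT between them (0.849, 0.853 and 0.829).

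**Figure D4:**
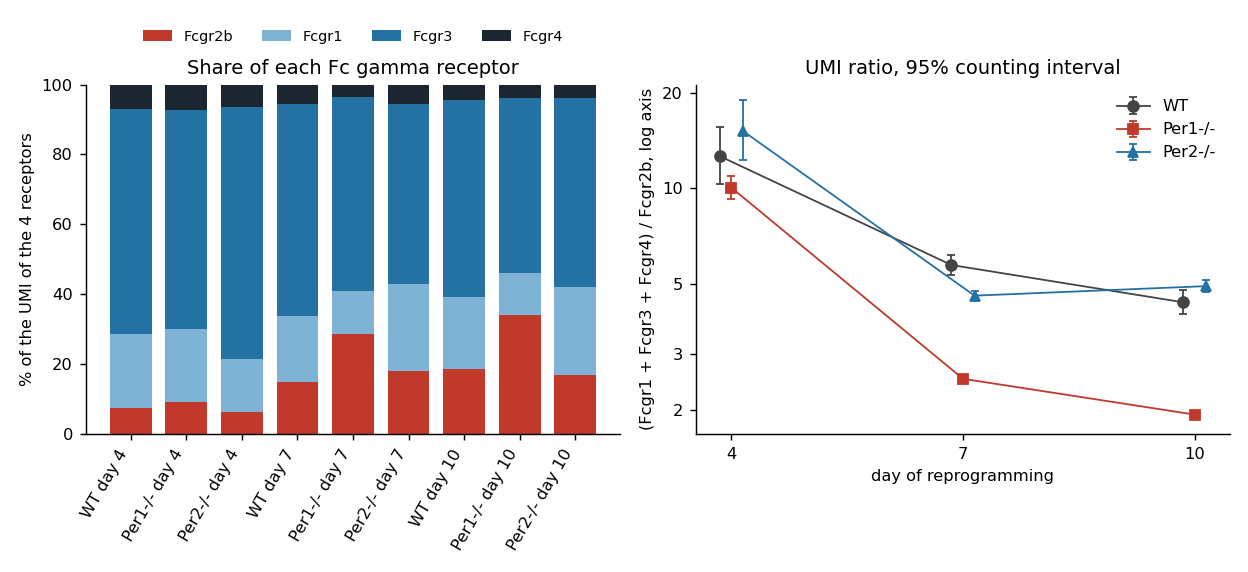
Left, the share of each of the 4 Fcγ receptor genes in their summed UMI for each library, in percent. Right, the ratio of activating (Fcgr1, Fcgr3, Fcgr4) to inhibitory (Fcgr2b) UMI by day on a log axis, with 95% counting intervals, 1 library per point; Per1-/- is lowest on each day, at 1.94 on day 10.

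The macrophage-like class held 3 clusters, formed without the 9 genes. Cluster 8 (3442 cells) held most cells of days 4 and 7, cluster 16 (2316 cells) was almost wholly from day 10, and cluster 21 (748 cells) was led by cell cycle genes. Within cluster 8, Fcgr2b was higher on day 7 than on day 4 in each genotype, going from 28.4 to 69.0 CPM in WT, 41.8 to 209 in Per1-/- and 20.4 to 143 in Per2-/- cells. In the cycling cluster 21 it went from 20.6 to 49.3 CPM in WT, 28.1 to 147 in Per1-/- and 23.1 to 79.4 in Per2-/- cells, and Per1-/- was again the highest on days 7 and 10.

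The few day 10 cells that fell into cluster 8 did not have high Fcgr2b. Its level there was 26.1 CPM in WT (35 cells), 35.9 in Per1-/- (31 cells) and 25.2 in Per2-/- (33 cells), near those of day 4. In cluster 16 the same libraries had 127, 302 and 132 CPM. Cluster 16, whose leading genes included Ccl8, Cd5l, Selenop and Fcgr2b itself, thus held most of the day 10 reads of Fcgr2b. Day, cluster and pipeline version cannot be told apart there. Within the 6 libraries of days 4 and 7, Pirb was at 94.4 to 139 CPM in the cycling cells and at 201 to 262 CPM in cluster 8, and Sirpa at 491 to 579 against 682 to 827 CPM. Fcgr3 was at 163 to 246 against 232 to 421 CPM, and was lower in the cycling cells in 5 of the 6, WT day 4 being the exception. Cycling cells made up 16.8% to 24.5% of the day 4 libraries' macrophage-like cells and 3.15% to 13.0% of those of day 10. On day 7 they were 20.5% in WT, 12.4% in Per1-/- and 7.93% in Per2-/- cells. The WT share was thus higher on day 7 than on day 4, where it was 16.8%. Without the cycling cluster, 2 of the 9 genes were called for day 7 against day 4, Fcgr3 having an edgeR adjusted p of 0.0248, where 665 of 12302 genes were called in place of 96 of 12851.

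**Figure D5:**
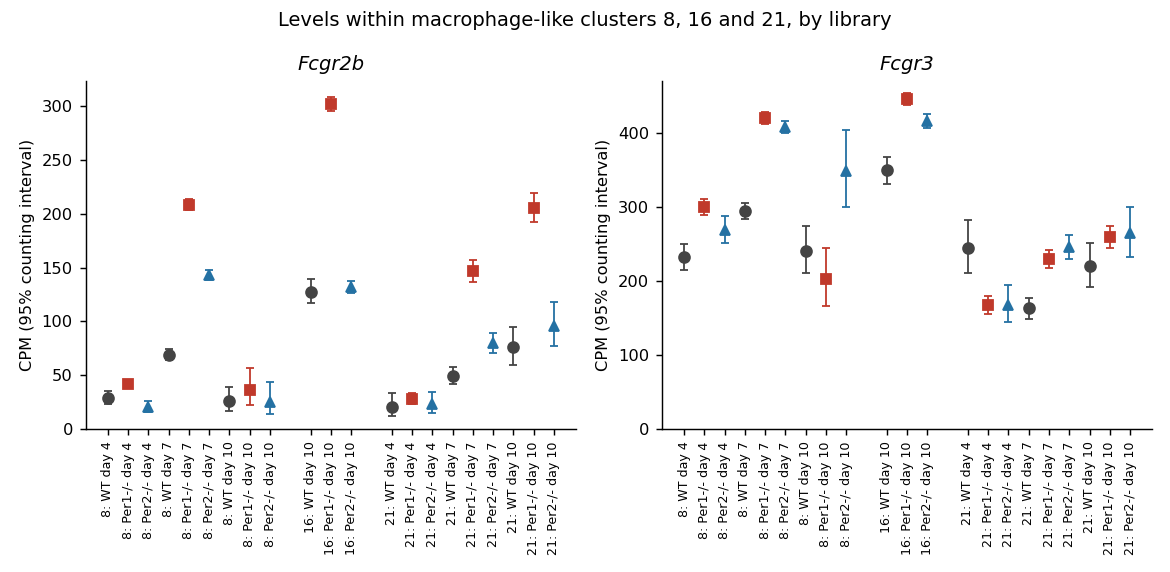
CPM of Fcgr2b (left) and Fcgr3 (right) with 95% counting intervals in each library of clusters 8, 16 and 21 (at least 10 cells), colored by genotype as in the other plots (gray WT, red Per1-/-, blue Per2-/-). Fcgr2b of day 10 cells is at 25.2 to 35.9 CPM in cluster 8 and at 127 to 302 CPM in cluster 16.

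The share of cells with a Fcgr2b UMI followed its level. Each cell was thinned to 5000 UMI so that shares could be compared, which left out 91 of the 6506 macrophage-like cells. Cells with a Fcgr2b UMI were then 9.35% in WT, 17.1% in Per1-/- and 8% in Per2-/- on day 4. They were 23.6%, 50.9% and 38.0% on day 7 and 32.4%, 62.8% and 38.4% on day 10. Unthinned, the shares ran from 24.4% to 89.3%. In fibroblast-like cells at the same depth the share was at most 0.297%.

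The corresponding shares were 21% to 56.2% for Fcgr1, 59.7% to 82.6% for Fcgr3, 8% to 15.8% for Fcgr4, 42.5% to 53.5% for Syk, 49.9% to 66.0% for Pirb and 83.9% to 97.2% for Sirpa. Fcer1g and Tyrobp were found in at least 99.5% of thinned macrophage-like cells of every library. Per2-/- cells with a Fcgr1 UMI were 21% on day 4 and 55.2% and 56.2% on days 7 and 10, while WT cells were at 28.1%, 30.3% and 39.6%.

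As the pathway around the 9 genes, 6 lists were read in the same fits. The ITAM-coupled list holds Hcst, whose product, the adaptor DAP10, has no ITAM itself. None of their genes passed for Per1-/- or Per2-/- against WT or against each other with edgeR, where at most 11 of the 12851 genes tested did. At an unadjusted p under 0.05, the count for Per2-/- against WT was 10 of 17 ITIM receptors, 7 of 16 ITAM-coupled genes, 5 of 31 kinases, adaptors and effectors, 4 of 17 phosphatases and negative regulators, 2 of 5 other Fc receptors and 3 of 7 ligands, where 16.2% of all genes did so. For Per1-/- against WT (8.29% of all genes) the counts were 4, 5, 2, 1, 3 and 2, and for Per1-/- against Per2-/- (17.4%) 4, 6, 5, 0, 0 and 1. These counts were not tested against the shares. The most abundant genes of each list are given here, first for Per1-/- and then for Per2-/- against WT. Trem2, the lipid-sensing receptor that signals through DAP12, was 0.32 ± 0.10 higher in both mutants than in WT (edgeR adjusted p = 0.493 and 0.195). Cd300c2 differed by 0.12 ± 0.11 and 0.27 ± 0.11. Lyn, a Src family kinase that phosphorylates ITAMs and ITIMs, differed by -0.22 ± 0.09 and -0.13 ± 0.09, and Rac1, a GTPase of phagocytosis, by -0.05 ± 0.09 in both. Ptpn6, encoding the phosphatase SHP-1 recruited by ITIMs, differed by -0.05 ± 0.11 and -0.01 ± 0.11, and Ptprc, encoding the phosphatase CD45, by 0.06 ± 0.12 and -0.03 ± 0.12. From the list of ITIM receptors, Cd300a and Cd33 differed by 0.17 ± 0.12 and 0.34 ± 0.12, and by -0.04 ± 0.12 and -0.08 ± 0.12. Fcrls differed by 0.56 ± 0.21 and 0.24 ± 0.22, and Fcgrt, encoding the neonatal Fc receptor, was 0.83 ± 0.19 and 0.86 ± 0.19 higher in the mutants (edgeR adjusted p = 0.335 and 0.167). Of the ligand genes, B2m differed by 0.03 ± 0.16 and 0.36 ± 0.17 and H2-D1 by 0.30 ± 0.14 and 0.39 ± 0.14 (smallest edgeR adjusted p = 0.242).

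For day 10 against day 4, where 1179 of the 12851 genes tested rose (9.17%) and 1074 fell, changes went in both directions on most lists. The list counts are descriptions beside these and were not tested against them. Changes of listed genes to day 10 cannot be told apart from the later pipeline version and gene table of that day. Among 16 genes tested from the list of other ITAM-coupled receptors and chains, 3 rose and 4 fell, counting Hcst. Hcst, encoding the adaptor DAP10, rose by 0.72 ± 0.13 on the log2 scale and Cd300c2 by 0.42 ± 0.11, while Clec4d, a C-type lectin that pairs with the γ chain, fell by 1.57 ± 0.26 and Cd300lb by 1.425 ± 0.31 (edgeR adjusted p = 0.0111, 0.0319, 0.00843 and 0.0187). Among 17 other ITIM receptors, 5 rose and 2 fell. Lilrb4a rose by 1.62 ± 0.21, Cd22 by 1.77 ± 0.30 and Clec4a2 by 0.86 ± 0.15, and Cd72 fell by 1.85 ± 0.30 (edgeR adjusted p = 0.00302, 0.00846, 0.00876 and 0.00749). Lilrb4a and its neighboring paralog Lilr4b, which fell by 1.24 ± 0.25, share near-identical sequence, so their split is uncertain.

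In the same contrast of day 10 against day 4, 17.5% of all genes passed, with 9.17% of all genes higher. Of 31 kinases, adaptors and effectors downstream of ITAMs, 3 rose and 5 fell, counts that were not tested against these shares. Pik3ap1, an adaptor of phosphoinositide 3-kinase, rose by 2.03 ± 0.17 and Vav2, a guanine nucleotide exchange factor, by 1.03 ± 0.14. Rac2, a GTPase of the phagocyte oxidase, fell by 0.63 ± 0.10 and Lat2 by 1.72 ± 0.38 (edgeR adjusted p = 0.00024, 0.00391, 0.00715 and 0.0196). Of 17 phosphatases and negative regulators 2 fell, Cblb by 0.69 ± 0.19 and Dok3 by 0.54 ± 0.15 (edgeR adjusted p = 0.0379 and 0.0398). Of 5 other Fc receptors 2 rose, Fcgrt by 1.62 ± 0.20 and Fcrls by 1.14 ± 0.22 (edgeR adjusted p = 0.00228 and 0.0119), and Fcgrt had already risen by day 7, by 1.29 ± 0.19 (edgeR adjusted p = 0.0365). It was the single gene of the 6 lists to pass for day 7 against day 4, where 0.747% of all genes did. For day 10 against day 7, Lilrb4a rose by 1.85 ± 0.20 and Pik3ap1 by 1.84 ± 0.16 (edgeR adjusted p = 0.00172 and 0.000307), and no other gene of the lists passed, against 1.07% of all genes. Both were also among the leading genes of cluster 16, which was almost wholly from day 10. This contrast falls on the change of pipeline version and gene table, so these rises cannot be told apart from that change. The medians of these lists for day 10 against day 4 were 0.17, 0.14, 0.02, -0.01 and 1.14, in the order in which they are given here, and 0.40 for the ligands, against 0.0029 for all genes.

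Ligands of the 9 gene products were read in the same cultures. Cd47, the ligand of SIRPα, was at 411 CPM in neuron-like, 387 CPM in macrophage-like and 229 CPM in fibroblast-like cells. Over the libraries the neuron-like range (338 to 509 CPM) lay above the fibroblast-like range (205 to 257 CPM). The MHC class I genes bound by PIR-B had their highest levels in the macrophage-like cells themselves, at 1236 CPM for H2-D1 and 707 CPM for H2-K1, against 60.3 and 13.8 CPM in neuron-like and 65.4 and 43.5 CPM in fibroblast-like cells. Of the 7 ligand genes tested in macrophage-like cells, 3 rose and 1 fell from day 4 to day 10. There H2-K1, B2m and H2-D1 rose from day 4 to day 10 by 0.75 ± 0.16, 0.68 ± 0.17 and 0.53 ± 0.14 on the log2 scale (edgeR adjusted p = 0.0172, 0.0263 and 0.0352). Rtn4, encoding Nogo, another ligand of PIR-B, was at 653 CPM in neuron-like cells and fell by 0.58 ± 0.12 in macrophage-like cells (edgeR adjusted p = 0.0156). Of the immunoglobulin genes that encode the ligands of Fcγ receptors, Ighg1, Ighg2b and Ighg2c had no UMI in macrophage-like cells. IgG in the medium is not seen by RNA-seq.

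Over the 9 macrophage-like sums, the genes whose log2 CPM was most like that of Fcgr2b were Ermard, Vamp3 and Gadd45b (Pearson r of 0.984, 0.983 and 0.979). Those most like Fcgr3 were Dbp, Fcgrt and 2310001H17Rik (0.987, 0.986 and 0.985), and those most like Fcgr1 were Ifi206, Ifi211 and Irgm1 (0.991, 0.986 and 0.983). Among the 9 genes themselves the highest value was that between Fcgr2b and Fcgr3 (0.933) and the lowest that between Tyrobp and Sirpa (-0.849). These are descriptions over 9 libraries that share days and genotypes.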

How the data were processed

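Per the file headers, the deposited UMI counts per gene and barcode were made with Cell Ranger 4.0.0 (days 4 and 7) or 6.0.0 (day 10), whereas the submitters' processing notes name Cell Ranger 7.1 and mm10. The counts were used as deposited, over the 30406 gene identifiers found in all 9 libraries. Barcodes under 3000 UMI or over 20% mitochondrial UMI were dropped, as were doublets found with the Scrublet method in scanpy 1.11.5. Cells were clustered (leidenalg 0.10.2, resolution 1.0) without the 9 genes and their lists, and clusters were named from marker lists. A cluster whose median UMI was under 0.4 of its library's was left unnamed, a limit set after the data were seen. UMI were summed per library and class and tested with edgeR 4.0.16 (quasi-likelihood, TMM, filterByExpr, R 4.3.3), with genotype and day as terms, two-sided, and Benjamini-Hochberg adjustment over all genes at 0.05. The scripts were tested on simulated data. Alternatives used DESeq2 1.42.0, limma-voom 3.58.1, other filters and cell definitions, and leaving out each library. Intervals of 95% are exact and cover counting error only. Members and lists were chosen with earlier results of these data known. Named genes were all 9 members, at most 4 passing genes per list and contrast by smallest adjusted p or, where none passed, the 2 with the most UMI, and the 3 genes most like a member. Lilr4b and the test of Sirpa by day in neuron-like cells were added after the values were seen. Libraries were separate samples per the labels, with 1 per genotype and day.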

Additional observations from a re-analysis of the deposited data

Results flagged for a closer look

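Within a day, the difference in Fcgr1 between genotypes went in opposite directions on different days. Fcgr1 UMI per total UMI in Per2-/- macrophage-like cells were 2.32-fold those of WT on day 7 (95% counting interval 2.17 to 2.48) and 1.65-fold on day 10 (1.52 to 1.79), but 0.673-fold on day 4 (0.564 to 0.803). Between Per1-/- and Per2-/- cells the ratio was 1.68 on day 4 (1.46 to 1.94), and 0.453 on day 7 and 0.536 on day 10. Fcgr4, another activating receptor gene, had a ratio of Per1-/- to Per2-/- of 1.38 on day 4 (1.11 to 1.74) and 0.574 on day 7 (0.525 to 0.628), but 1.09 on day 10 (0.985 to 1.21), so this reversal was seen on day 7 alone. Each ratio rests on 1 library against 1 other, and the difference between days was not tested.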

How the results depend on the processing

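The 9 genes in 7 contrasts were refitted under 20 alternatives. Of the resulting 1260 values, 1141 kept their direction and side of the threshold, 14 were no longer called, 19 became called and 86 changed sign, none of these being called. Of the 63 differences behind them, 40 changed sign under at least 1 alternative (7 of 21 for Fcgr1, Fcgr2b and Fcgr3, and 33 of 42 for the other 6 genes). The count of genes called was 1 in place of 0 in the 3 contrasts of Per1-/- (with WT, with Per2-/- and with their mean), both with DESeq2 and without a low-count filter, where the genes called in all went from 1, 11 and 1 to 65, 268 and 105 and to 55, 551 and 114. For day 7 against day 4 it was 2 in place of 1 with DESeq2, without a low-count filter and without the cycling cluster, and 0 with the gate on single cells, 1 term only, the Y-linked covariate or the low-UMI cluster included. All genes called there went from 96 to 632, 781 and 665, and to 0, 1, 0 and 0. For day 10 against day 4 it was 1 in place of 2 with the gate, 1 term only or the Y-linked covariate, and 0 with the low-UMI cluster, with 615, 998, 249 and 440 genes called in all in place of 2253. It was 3, with Fcgr1 added, with DESeq2, without a low-count filter and without the cycling cluster, with 2335, 2574 and 2301 genes called in all. Leaving out 1 library gave 0 to 1 for the 3 pairwise genotype contrasts, 0 to 2 for Per1-/- against the mean, 0 to 1 for day 7 and 1 to 2 for day 10 against day 4, the call of Fcgr3 being lost without Per1-/- day 4. The genes called in all were then 0 to 19 for Per1-/- and 0 to 1071 for Per2-/- against WT, 1 to 1547 between the mutants, 1 to 386 against the mean, and 0 to 169 and 633 to 2124 for day 7 and day 10 against day 4. Without Per2-/- day 4, Fcgr1 was called in all 3 genotype contrasts that involve Per2-/-, with an edgeR adjusted p of 0.0406 against the mean. Those fits called 1547 genes in all between the mutants, 1071 with Per2-/- compared to WT and 386 with the mean, where 11, 0 and 1 were called with all libraries. The log2 difference of Fcgr3 between Per1-/- and Per2-/- was -0.15 with the Y-linked covariate and -0.031 to 0.11 with 1 library left out, and that of Fcgr1 between Per1-/- and WT was -0.20 to 0.33 with 1 library left out. With the low-UMI cluster, Sirpa for Per2-/- against WT was 0.14, and Fcgr1, Fcgr2b and Fcgr3 for day 10 against day 7 were -0.17, -0.018 and -0.26. The pooled ratio of activating to inhibitory receptors was 3.34, and 2.35 for Fcgr3 against Fcgr2b alone. The low-UMI cluster and the shared barcodes were examined as alternatives chosen after seeing the data. The causes of these changes were not tested. No paired analysis was possible because the labels give no replicate numbers that pair libraries beyond the day, which is already a term of the fits and is left out in the alternative with 1 term only.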
